A study of Mus musculus with 24 samples.

Results

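The genes described here are 9 that carry signals from antigen, Fc and chemokine receptors: the Src family kinases Lyn, Fgr and Fyn, their inhibitor Csk, the kinases Syk, Btk and Prkcd, the exchange factor Vav2 and the receptor kinase Grk3. They were taken as a list, 9 of 35817 gene symbols, to set the T cell kinase Fyn beside kinases of B and myeloid cells. The members were chosen by function and by measured expression: Lyn, Fgr, Prkcd, Vav2 and Grk3 stand on the study's list of genes lower in *Cat-Tg* than in WT T cells, and all 9 were picked with earlier results of these data known, so the differences between *Cat-Tg* and WT are given below as a description that supports nothing. The libraries came from splenic T cells of C57BL/6 mice that were WT or carried a transgene for human β-catenin lacking part of its N terminus (*Cat-Tg*), all young adults matched for age and sex by the study's methods. The pre-tx cells were sorted from fresh spleens, and the post-tx cells were donor cells recovered from the spleens of irradiated BALB/c recipients, which had also been given WT bone marrow depleted of T cells, on day 7 after transplantation. CD4+ and CD8+ cells of each genotype and time gave 8 groups of 3 libraries. By the study's methods 3 mice were used per genotype and time. Both cell types were sorted from each mouse, so the CD4+ and CD8+ libraries share mice. The promoter of the transgene is not named in the sources used here. Post-tx cells were sorted by CD4 or CD8 and by H-2Kb, which donor cells carry and BALB/c cells lack, so the sort sets recipient cells aside, while the donor marrow also carries H-2Kb.

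Src family kinases sit at the inner face of the plasma membrane and start the signals of antigen receptors, Fc receptors and integrins by phosphorylating tyrosines on receptor tails. In T cells the work is done by Lck, with Fyn beside it, and the phosphorylated tails recruit Zap70. In B cells Lyn and Blk, and in macrophages and neutrophils Lyn and Fgr, act in the same place, and the tails recruit Syk, after which the Tec kinase Btk and phospholipase C gamma carry the signal on. Csk phosphorylates the tail of every Src family kinase and holds it shut. Prkcd (protein kinase C delta) restrains B cell activation, Vav2 activates small GTPases below antigen receptors, and Grk3 phosphorylates activated G protein coupled receptors, chemokine receptors among them.

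Libraries held 11135713 to 50519825 estimated counts. Levels of one gene across libraries are given as CPM, estimated counts scaled to library totals after TMM normalization, and levels of different genes are compared only as TPM, a transcript share that is per length. At these depths 3 counts correspond to 0.0594 to 0.269 CPM. The labels were checked with subset and cell type markers. Cd8a made up 99% or more of the summed Cd4 and Cd8a CPM in the other CD8+ libraries and at most 3.39% in the other CD4+ libraries, but 50% to 63.9% in the WT-labelled CD8+ pre-tx libraries and 52.4% to 65.4% in the WT-labelled CD4+ pre-tx libraries, so the transcripts do not match these 6 labels. The same 6 libraries had 5989 to 9130 CPM over 14 B cell markers, against 264 to 749 CPM in *Cat-Tg* pre-tx and 55.3 to 123 CPM post-tx, and 1695 to 3011 CPM over 10 T cell markers, against 4748 CPM or more in each of the other 18 libraries. They are called the WT-labelled pre-tx libraries, and the values that rest on them are given with that limit.

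Fyn has 2 mutually exclusive exons in its kinase region, which distinguish the form typical of T cells and other blood cells (FynT, 534 codons) from the form first described in brain (FynB, 537 codons). Both are printed from the genome in lower case, because the transcript tables allow the forms to be read apart in each library (genome GRCm38, plus strand, 156 bases at chr10:39529919-39530074 for FynT and 165 bases at chr10:39529437-39529601 for FynB).
FynT exon: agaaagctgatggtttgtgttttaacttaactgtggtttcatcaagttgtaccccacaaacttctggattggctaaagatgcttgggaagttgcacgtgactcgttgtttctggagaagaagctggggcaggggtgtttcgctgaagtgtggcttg
FynB exon: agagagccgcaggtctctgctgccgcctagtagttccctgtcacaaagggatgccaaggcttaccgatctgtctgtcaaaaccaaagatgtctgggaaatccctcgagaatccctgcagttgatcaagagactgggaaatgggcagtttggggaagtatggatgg

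The window from 250 bases before to 50 bases after the start is shown for Btk and Fyn, a kinase of B and myeloid cells and the T cell kinase set beside it (RefSeq, GRCm38.p6; Btk chrX:134583091-134583390, minus strand; Fyn chr10:39369549-39369848, plus strand). Capitals mark GAGGAA or, on the opposite strand, TTCCTC, the core of the sites bound by PU.1, a transcription factor of myeloid and B cells.
Btk promoter: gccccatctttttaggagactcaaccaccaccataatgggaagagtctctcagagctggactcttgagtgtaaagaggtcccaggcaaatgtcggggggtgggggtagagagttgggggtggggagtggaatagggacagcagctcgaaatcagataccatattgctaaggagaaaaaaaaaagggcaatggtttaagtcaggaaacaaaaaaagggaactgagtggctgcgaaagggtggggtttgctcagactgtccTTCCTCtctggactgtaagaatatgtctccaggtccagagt
Fyn promoter: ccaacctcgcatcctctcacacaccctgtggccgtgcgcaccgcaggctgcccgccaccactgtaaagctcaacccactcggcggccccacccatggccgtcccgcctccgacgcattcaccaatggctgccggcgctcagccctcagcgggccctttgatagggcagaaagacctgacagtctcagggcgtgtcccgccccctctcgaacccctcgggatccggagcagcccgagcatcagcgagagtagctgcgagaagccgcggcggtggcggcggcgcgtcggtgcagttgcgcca

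Of the 9 genes, 7 had such a window. The motif was searched on both strands and was found in 6 of the 10 windows of these genes, with Csk, Syk and Prkcd having more than 1 window each; 28.3% of 32851 windows of all genes held it. The 6 windows were those of Fgr, Btk and Vav2, both of Csk and 1 of Syk, and no window of Fyn or Prkcd held it. The Btk window had 3 CG dinucleotides and the Fyn window 31, with a median of 7 over all windows. These matches describe the letters of the windows only.

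The genes lie on separate chromosomes, apart from Lyn (chr4:3678115-3813122, plus strand) and Fgr (chr4:132974095-133001910, plus strand). In the GENCODE M21 annotation (GRCm38) the others are Fyn (chr10:39368855-39565381, plus strand), Csk (chr9:57626646-57653631, minus strand), Syk (chr13:52583173-52648792, plus strand), Btk (chrX:134542336-134583570, minus strand), Prkcd (chr14:30595354-30626210, minus strand), Vav2 (chr2:27262104-27427033, minus strand) and Grk3 (chr5:112910482-113015791, minus strand). All 9 passed the filter of more than 1 CPM in at least 3 libraries in each fit.

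Lyn, which both activates and restrains B and myeloid cells, spanned the widest group means among the Src family members of the list. It stood at 286, 174 and 258 CPM in the WT-labelled CD8+ pre-tx libraries and at 136, 174 and 179 CPM in the WT-labelled CD4+ pre-tx libraries. *Cat-Tg* CD4+ post-tx libraries had 78.4, 152 and 179 CPM and overlapped the latter. All other groups were lower: *Cat-Tg* CD4+ pre-tx had 37.1, 41.6 and 64.9 CPM, WT CD4+ post-tx 21.7, 33.6 and 28.1 CPM, and each of the 9 *Cat-Tg* CD8+ pre-tx, *Cat-Tg* CD8+ post-tx and WT CD8+ post-tx libraries 14.3 CPM or less. Apart from the WT-labelled pre-tx libraries, every CD4+ library thus held more Lyn than any CD8+ library.

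Fgr, a kinase of macrophages and neutrophils, had the same highest groups as Lyn over a narrower range. Its CD4+ libraries did not lie above its CD8+ libraries throughout: the CD8+ post-tx means (39.2 CPM in *Cat-Tg*, 36 CPM in WT) exceeded those of *Cat-Tg* CD4+ pre-tx (32.1 CPM) and WT CD4+ post-tx (29.1 CPM). It was at 120 to 259 CPM in the WT-labelled CD4+ pre-tx libraries, at 90.7 to 131 CPM in the WT-labelled CD8+ pre-tx libraries, and at 119, 144 and 147 CPM in *Cat-Tg* CD4+ post-tx. The other post-tx groups overlapped each other between 21.7 and 51.7 CPM, and *Cat-Tg* CD8+ pre-tx was lowest, at 13.4, 15.3 and 15.4 CPM. *Cat-Tg* CD4+ pre-tx, at 46.6, 18.8 and 31 CPM, overlapped the lower post-tx groups. Both 2398-base Fgr transcripts carried equal counts in the deposited tables, and the gene's value is their sum with the other transcripts.

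Fyn had another order. The highest group was WT CD4+ post-tx, at 99, 122 and 164 CPM, followed by *Cat-Tg* CD8+ post-tx at 117, 116 and 68.6 CPM. *Cat-Tg* CD4+ post-tx had 43.2, 76.5 and 77.6 CPM and WT CD8+ post-tx 64.8, 22.9 and 73.7 CPM. The 12 pre-tx libraries, the WT-labelled ones included, lay between 22.6 and 59.4 CPM. Each neighbour in this order overlapped the next, so no 2 adjacent groups were apart, and WT CD8+ post-tx replicate 2 lay far below the other 2 libraries of its group.

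Csk, which holds the Src family kinases shut, had the smallest ratio of highest to lowest group mean of the 9. Its group means ran from 102 CPM in WT CD4+ post-tx to 329 CPM in the WT-labelled CD4+ pre-tx libraries, and every neighbour in that order overlapped. WT CD8+ post-tx had 58.7, 463 and 271 CPM, the widest spread of Csk in any group, and again replicate 2 stood at one end.

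**Figure D1:**
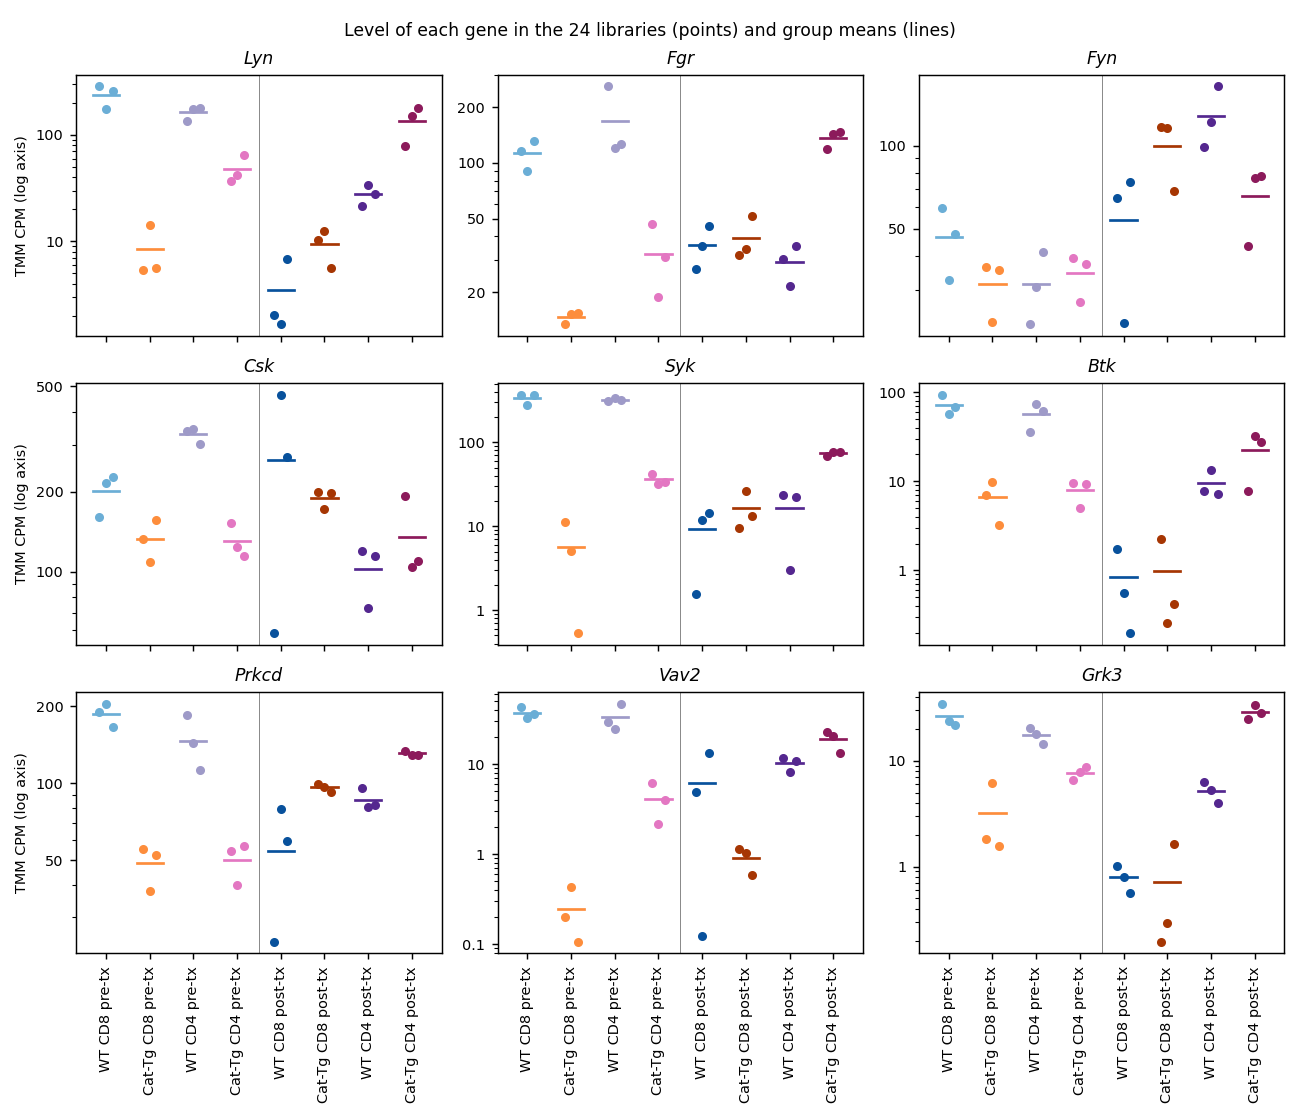
TMM CPM of the 9 genes (log axes) in the 8 groups on the x axis, with 1 point per library and a line at each group mean. By group mean, Lyn, Syk, Btk and Vav2 are highest in the WT-labelled pre-tx libraries, Fyn in WT CD4+ post-tx (128 CPM) and Grk3 in *Cat-Tg* CD4+ post-tx (28.9 CPM).

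Syk, which binds phosphorylated tails in B and myeloid cells as Zap70 does in T cells, was at 279 to 366 CPM in the 6 WT-labelled pre-tx libraries and below 80 CPM in all others. *Cat-Tg* CD4+ post-tx followed at 68.4, 77 and 75.8 CPM, then *Cat-Tg* CD4+ pre-tx at 42.5, 32.1 and 33.8 CPM, and these 3 steps did not overlap. The remaining 4 groups overlapped each other between 0.536 and 26.5 CPM. Btk, which acts below Syk in B cells, was at 35.5 to 92.8 CPM in the WT-labelled pre-tx libraries, at 7.71, 32.4 and 27.8 CPM in *Cat-Tg* CD4+ post-tx and at 0.199 to 2.28 CPM in the 6 CD8+ post-tx libraries, where 3 counts correspond to 0.0779 to 0.165 CPM.

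Prkcd varied little within the *Cat-Tg* post-tx groups: *Cat-Tg* CD4+ post-tx had 134, 129 and 129 CPM and *Cat-Tg* CD8+ post-tx 99.6, 96.9 and 92.8 CPM, while the 6 *Cat-Tg* pre-tx libraries lay between 37.9 and 56.8 CPM. WT post-tx libraries were at 24 to 79.5 CPM in CD8+ and 80.9 to 95.6 CPM in CD4+ cells. The WT-labelled pre-tx groups had the highest means, at 113 to 205 CPM, and those labelled CD4+ (113 to 185 CPM) overlapped *Cat-Tg* CD4+ post-tx. Vav2 was nearly absent from *Cat-Tg* CD8+ cells, with at most 10 counts in any pre-tx library (0.107 to 0.428 CPM) and 0.58 to 1.14 CPM post-tx, while *Cat-Tg* CD4+ post-tx had 22.8, 20.7 and 13.3 CPM. WT CD8+ post-tx was again uneven for Vav2, at 4.95, 0.123 and 13.4 CPM.

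Grk3 was the only 1 of the 9 with its highest mean in *Cat-Tg* CD4+ post-tx, at 24.7, 33.6 and 28.5 CPM, which overlapped the WT-labelled CD8+ pre-tx libraries (34.5, 23.8 and 21.9 CPM). *Cat-Tg* CD4+ pre-tx had 6.53, 7.89 and 8.64 CPM and WT CD4+ post-tx 6.32, 5.32 and 3.98 CPM. The CD8+ post-tx groups were lowest, at 0.196, 0.293 and 1.64 CPM in *Cat-Tg* and 1.02, 0.797 and 0.558 CPM in WT. Of the 9 genes, 7 had their highest group mean in a group labelled WT pre-tx, and the exceptions were Fyn and Grk3.

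Set side by side on TPM, Lck was the largest of 7 Src family kinases (Src, Yes1, Fyn, Fgr, Lck, Blk and Lyn) in every library, and what lay beside it differed by group. Of their summed TPM, Lck made up 97.2% to 98.3% in *Cat-Tg* CD8+ pre-tx, 96.2% to 97.4% in *Cat-Tg* CD8+ post-tx and 85.1% to 91% in *Cat-Tg* CD4+ post-tx, but 54.6% to 69.2% in the WT-labelled pre-tx libraries. There, Lyn, Fgr, Blk, Src and Yes1 together made up 29.4% to 40.9%, and Blk, a B cell kinase, was 16.8% to 20.9%. Post-tx, Blk was at most 0.12% in any library, so the 7.26%, 11.1% and 10.2% of these 5 kinases in *Cat-Tg* CD4+ post-tx was nearly all Fgr (4.69%, 6.01% and 5.07%) and Lyn (2.32%, 4.82% and 4.88%), which macrophages and neutrophils use.

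Fyn made up 0.279% to 6.87% of the summed TPM of the 7 kinases over the 24 libraries. Its ratio to Lyn, TPM over TPM, was 0.31 ± 0.0547 (SD, n = 3) in CD8+ and 0.308 ± 0.0562 in CD4+ among the WT-labelled pre-tx libraries. It was 6.01 ± 2.86 in *Cat-Tg* CD8+ pre-tx, 14.2 ± 10.9 in WT CD8+ post-tx, 16.3 ± 2.18 in *Cat-Tg* CD8+ post-tx and 6.52 ± 2.17 in WT CD4+ post-tx. The *Cat-Tg* CD4+ groups lay between, at 1.15 ± 0.482 pre-tx and 0.742 ± 0.0478 post-tx. Fyn therefore exceeded Lyn in all 12 libraries of *Cat-Tg* CD8+ cells and of WT post-tx cells, and Lyn exceeded Fyn in the 6 WT-labelled pre-tx libraries and in the 3 *Cat-Tg* CD4+ post-tx libraries.

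**Figure D2:**
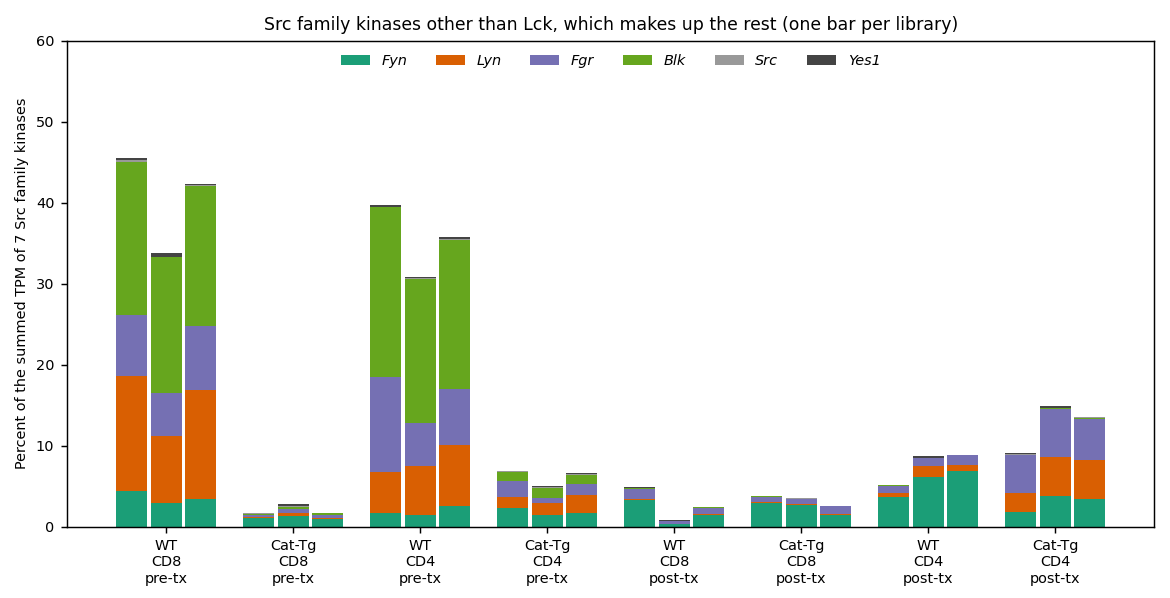
Percent of the summed TPM of 7 Src family kinases (y axis) held by Fyn, Lyn, Fgr, Blk, Src and Yes1, with 1 stacked bar per library in the 8 groups (x axis) and Lck as the unshown rest. Blk is a visible part of the bars mainly in the WT-labelled pre-tx libraries (16.8% to 20.9%), and Fgr and Lyn fill most of the *Cat-Tg* CD4+ post-tx bars.

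The same reading was made for the families of the other kinases. Syk made up 59.2% to 63.7% of the summed TPM of Syk and Zap70 in the WT-labelled CD8+ pre-tx libraries and 38.1% to 45.1% in the WT-labelled CD4+ pre-tx libraries. In *Cat-Tg* CD4+ cells the share was 4.12% to 5.95% pre-tx and 3.53% to 8.5% post-tx, and in all 9 libraries of *Cat-Tg* CD8+ and WT CD8+ post-tx cells it was 1.25% or less. Of the TPM of 8 protein kinase C genes Prkcd held 30.9% to 47.9% in the WT-labelled pre-tx libraries, 15.7% to 23.6% in *Cat-Tg* CD4+ post-tx and 6.02% to 17.7% in the other libraries. Vav2 was a minor Vav in every library, with at most 14.4% of the TPM of the 3 Vav genes.

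Fyn transcripts were mostly of the FynT form. The transcripts with the FynT exon printed above held 88.7 ± 4.78% (SD, n = 3) of Fyn estimated counts in *Cat-Tg* CD8+ post-tx and 89.9 ± 4.73% in WT CD4+ post-tx, and the FynB exon 5.94 ± 4.13% and 1.9 ± 1.49%. In the WT-labelled CD8+ pre-tx libraries the FynT transcripts held 72.3 ± 11.5% and in the WT-labelled CD4+ pre-tx libraries 77.3 ± 6.83%. The lowest FynT share was in *Cat-Tg* CD4+ post-tx replicate 1, at 34%, where a transcript with neither exon (482 codons) held 48.1%, while the other 2 libraries of that group had 89.9% and 82.8%. WT CD4+ post-tx (84.5% to 92.8%) and *Cat-Tg* CD4+ pre-tx (60.4% to 70.3%), which differ in both genotype and time, did not overlap. *Cat-Tg* CD4+ post-tx (34% to 89.9%) overlapped *Cat-Tg* CD4+ pre-tx, and libraries within some groups differed as much. WT CD8+ post-tx replicate 2 had the most FynB, at 40.3% of 374 counts. These shares were not tested and rest on how the quantification divided reads between transcripts. Of Lyn, the 512-codon form (LynA) held 83.2% and the 491-codon form (LynB) 15.9% of the counts summed over all libraries.

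**Figure D3:**
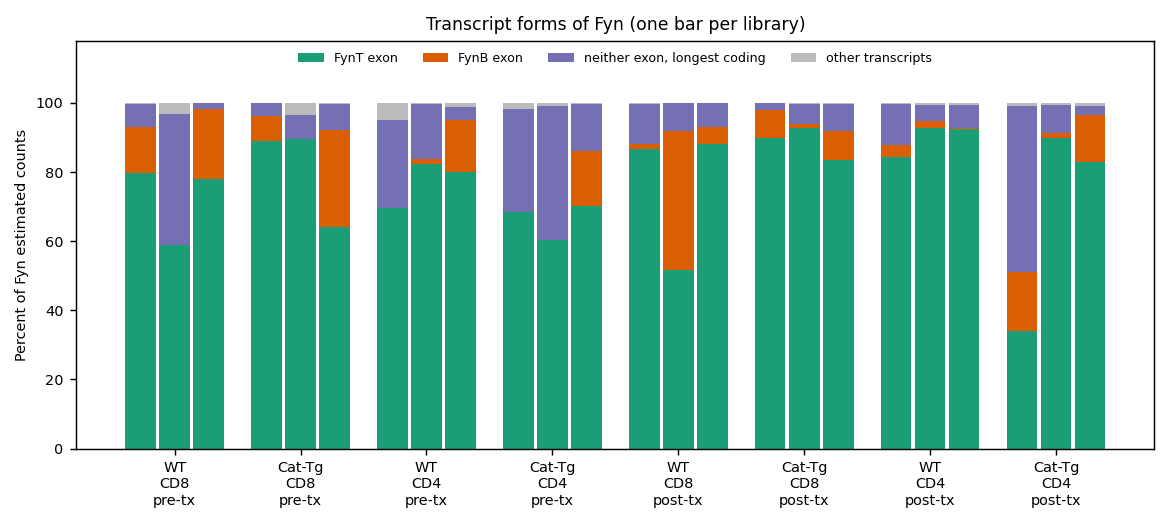
Percent of Fyn estimated counts (y axis) in transcripts with the FynT exon, with the FynB exon, with neither exon or in other transcripts, with 1 stacked bar per library in the 8 groups (x axis). FynT transcripts hold the largest part of each bar, except in *Cat-Tg* CD4+ post-tx replicate 1, where they hold 34%.

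The change from pre-tx to post-tx was fitted within *Cat-Tg* cells, since the *Cat-Tg* libraries match their labels. Their pre-tx libraries are also the low side of the *Cat-Tg* against WT comparison, and choosing Lyn, Fgr, Prkcd, Vav2 and Grk3 from genes lower there favours a rise from the same libraries. The values of these 5 are therefore a description, given without p, and the other 4 are tested. These tests are limited too, because the other 4 were picked with earlier results of these data known. Btk and Syk were also lower in these *Cat-Tg* pre-tx libraries than in the WT-labelled ones. In *Cat-Tg* CD4+ cells edgeR's quasi-likelihood F test, with Benjamini-Hochberg adjustment over 17227 genes, called 5 of the 9 genes higher post-tx and 0 lower, and the 5 were exactly those chosen from the study's list, so nothing is read from that count. On the log2 scale Vav2 was higher post-tx by 1.90 ± 0.436 (SE), Fgr by 1.77 ± 0.349 (3.41-fold), Grk3 by 1.59 ± 0.365, Lyn by 1.17 ± 0.319 and Prkcd by 1.05 ± 0.245, and for each all post-tx libraries lay above all pre-tx libraries.

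Of all genes tested in that comparison, 16.2% were higher and 28.9% lower post-tx, with a median log2 fold change of -0.38. Fyn differed by 0.60 ± 0.302 (adjusted p = 0.116), Btk by 1.19 ± 0.486 (adjusted p = 0.0562), Syk by 0.71 ± 0.455 (adjusted p = 0.216) and Csk by -0.26 ± 0.271 (adjusted p = 0.457). By a normal approximation from the SE, the 95% interval for Fyn ran from 0.01 to 1.19 and for Syk from -0.19 to 1.60. These data therefore do not show that either stayed level. The approximation is narrower than the F test: the Fyn interval held positive values only, but its unadjusted p by that test was not under 0.05. With DESeq2 size factors the median of all genes moved by 0.23, and with them or without the WT-labelled pre-tx libraries Fyn and Btk were called as well, the split of all calls went from 35.9% higher to 45.1% and 53.9%, and Csk lay at 0.0 and 0.08. Without *Cat-Tg* CD4+ post-tx replicate 1 Fyn and Btk were called higher and Csk was called lower (-0.63, adjusted p = 0.0385 by the same edgeR test).

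Macrophage transcripts moved with these genes. The 10 macrophage and monocyte markers summed to 2415 to 3770 CPM in *Cat-Tg* CD4+ post-tx against 926 to 1309 CPM pre-tx. Of the 10, 8 rose (Csf1r by 2.46 ± 0.385) and 2, Lyz2 and Ms4a7, fell; none of the 10 was at 0. Of the 14 B cell markers 13 fell over the same comparison, and their sum went from 556 to 749 CPM to 105 to 123 CPM. The erythroid sum (4 genes) also went from 361 to 557 CPM to 1423 to 9122 CPM, and the neutrophil sum (7 genes) from 208 to 569 CPM to 450 to 922 CPM. The part of any of these cell types in the higher values of Lyn, Fgr, Vav2, Grk3 and Prkcd was not tested, and in bulk libraries a change in the number of cells of a type and in the RNA per cell cannot be told apart.

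The receptors and adaptors around these kinases are given by list. Of 10 Fc and ITAM or ITIM receptor genes of myeloid cells (Fcgr1 is also among the macrophage markers), 7 rose and 0 fell in *Cat-Tg* CD4+ cells, with a median log2 fold change of 2.44. Fcer1g, the signaling chain shared by Fc receptors, rose by 2.71 ± 0.296 (adjusted p = 1.31e-05), Fcgr4 by 3.53 ± 0.467 (adjusted p = 5.01e-05) and Sirpa, an inhibitory receptor of macrophages, by 3.16 ± 0.364 (adjusted p = 2.01e-05). Of 10 B cell receptor partners 3 rose and 4 fell: among the latter Cd79a and Cd79b, the signaling chains of the B cell receptor, fell by 4.08 and 3.29 and Cd22 by 1.66, while Plcg2, Pik3ap1 and Inpp5d, which myeloid cells also use, rose by 2.22, 2.46 and 1.61. Blk fell by 4.36 ± 0.764 (adjusted p = 0.000616). Of 10 T cell receptor partners 1, the adaptor Lcp2, rose and 3 (Cd3d, Cd3g and Cd247) fell.

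In *Cat-Tg* CD8+ cells 2 of the 9 genes were called higher and 1 lower post-tx. Fyn rose by 1.67 ± 0.481 (3.19-fold; adjusted p = 0.0325) and Btk fell by 2.73 ± 0.845 (6.63-fold; adjusted p = 0.0435), by the same edgeR test over 15960 genes, and Fgr, a description as in CD4+ cells, was higher by 1.43 ± 0.404 (2.70-fold). The libraries of both times were apart for each of the 3. Of all genes tested 8.72% were higher and 5.23% lower. Of the other 6, Prkcd (1.00 ± 0.415), Vav2 (1.90 ± 1.03) and Csk (0.53 ± 0.514, adjusted p = 0.467) also had libraries that did not overlap between the times, and Syk, Grk3 and Lyn overlapped.

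The calls were sensitive to single libraries. Fgr lost its call without any 1 of the 6 libraries and with no filter on low counts, Fyn without any 1 other than *Cat-Tg* CD8+ post-tx replicate 3 (up to 0.123), and Btk without *Cat-Tg* CD8+ pre-tx replicate 1 or 2 or post-tx replicate 2 or 3 (up to 0.155) and with counts from length-scaled TPM (0.0764); their directions did not change. Without the 6 WT-labelled pre-tx libraries 1 of the 9, Fyn, was called. The B cell markers fell here too, 12 of 14, from 264 to 554 CPM to 85.1 to 87.1 CPM, and 5 of 10 B cell receptor partners fell (Cd79a by 4.33 ± 0.643, adjusted p = 0.000609; Blnk by 2.43 ± 0.519, adjusted p = 0.00699) while 2, Pik3ap1 and Inpp5d, rose. Blk fell by 3.36 ± 0.641 (adjusted p = 0.00357). The macrophage and monocyte sum was 171 to 713 CPM pre-tx and 320 to 387 CPM post-tx, with Cd68 and Ccr2 higher and Lyz2 lower. Their part in the fall of Btk and the rise of Fgr was not tested. Of the T cell receptor partners 1 of 10 rose (Lcp2), and 0 of 10 T cell markers passed the edgeR test (median 0.28).

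Whether the change differed between CD8+ and CD4+ cells was tested as an interaction in 1 fit of all 24 libraries. Of the 9 genes 2 were called, with 0.22% of 19076 genes higher and 0.729% lower. The CD8+ minus CD4+ difference was -4.27 ± 1 for Btk (adjusted p = 0.036) and, as a description, -4.06 ± 0.876 for Grk3. Grk3 changed from 7.68 to 28.9 CPM in CD4+ and from 3.18 to 0.71 CPM in CD8+ cells (group means). Btk went from 7.89 to 22.6 CPM and from 6.66 to 0.986 CPM. For Fyn, called in CD8+ and not in CD4+ cells, the difference was 0.73 ± 0.558 (adjusted p = 0.719, 95% interval by the normal approximation -0.36 to 1.83). For Lyn, called in CD4+ only, it was -1.34 ± 0.663 and was not called. Leaving out 1 of the 12 libraries ended the Btk call in 9 cases (adjusted p between 0.00539 and 0.168) and the Grk3 call in 8. Both calls were lost without the WT-labelled pre-tx libraries, with counts from length-scaled TPM and with a replicate block (adjusted p = 0.197 for Btk). *Cat-Tg* pre-tx libraries, in which Grk3 and Lyn were chosen as low, enter both sides of these differences. The values of Grk3 and Lyn are therefore a description, given without p. Btk was also low in these libraries and was picked with earlier results known, which limits its adjusted p.

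**Figure D4:**
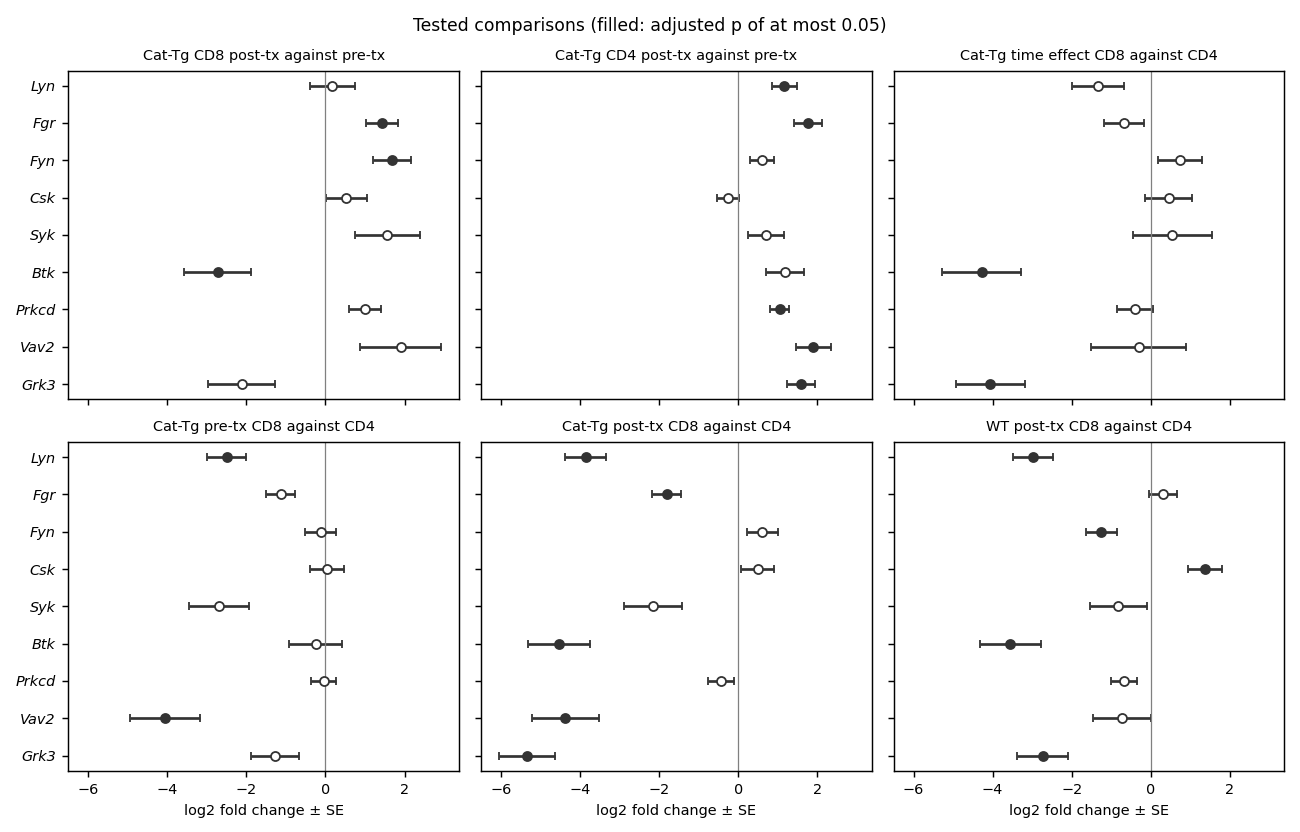
Log2 fold change ± SE (x axis) of the 9 genes (y axis) in the 6 tested comparisons, 3 libraries per group, first group minus second. Where *Cat-Tg* pre-tx libraries enter, the 5 genes taken from the study's list are shown as a description. Filled points have an adjusted p of at most 0.05; in *Cat-Tg* CD4+ cells the 5 genes taken from the study's list are filled to the right of 0, which their choice favours, and in the comparison of CD8+ with CD4+ *Cat-Tg* post-tx cells 5 are filled to the left.

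CD8+ and CD4+ cells were compared within a genotype and time. Their libraries share mice by the study's methods, but the pairs are not known, so the fit treats the libraries as independent. In *Cat-Tg* post-tx 5 of the 9 genes were lower in CD8+ and 0 higher. The CD8+ minus CD4+ log2 difference was -5.34 ± 0.713 for Grk3 (adjusted p = 2.53e-05), -4.52 ± 0.786 for Btk (adjusted p = 0.000529), -4.37 ± 0.848 for Vav2 (adjusted p = 0.00168), -3.85 ± 0.521 for Lyn (adjusted p = 2.71e-05) and -1.80 ± 0.366 for Fgr (adjusted p = 0.00255). Of all genes 1.49% were higher and 4.51% lower. Fyn was 0.61 ± 0.395 (adjusted p = 0.428) and Csk 0.49 ± 0.428 (adjusted p = 0.58), the 2 with a positive value. Syk was -2.16 ± 0.736 (adjusted p = 0.0881) and Prkcd -0.44 ± 0.324 (adjusted p = 0.495). Neither was called by edgeR, though the libraries of both genes did not overlap, and Syk was called with limma-voom and DESeq2. The Fgr call was lost without *Cat-Tg* CD8+ post-tx replicate 2 (adjusted p = 0.0608), and the other 4 held without any 1 library.

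Genes of myeloid receptors were lower in the same comparison. Of the 10 Fc and ITAM or ITIM receptor genes 9 were lower in CD8+ *Cat-Tg* post-tx cells, with a median of -4.29; Tyrobp, a signaling adaptor of macrophage and NK receptors, differed by -3.70 ± 0.43 (adjusted p = 4.85e-06). Lck was higher by 1.18 ± 0.337 (adjusted p = 0.036). The macrophage and monocyte sum was 320 to 387 CPM in CD8+ and 2415 to 3770 CPM in CD4+, 8 of its 10 markers were lower in CD8+, and its part in these differences was not tested.

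In *Cat-Tg* pre-tx cells 2 of the 9 were called lower in CD8+ than in CD4+, Vav2 (-4.05 ± 0.882) and Lyn (-2.50 ± 0.493), where 0.367% of genes were higher and 1.16% lower. Both were chosen from genes lower in *Cat-Tg*, and these libraries enter that choice, so their values are a description, given without p. Vav2 lost its call without CD8+ replicate 1 or 3 or CD4+ replicate 1, with limma-voom and with counts from length-scaled TPM. Syk differed by -2.70 ± 0.757 and was not called by edgeR (adjusted p = 0.0805), though its libraries did not overlap. Syk was called with limma-voom, DESeq2 and counts from length-scaled TPM, and without CD8+ replicate 1. Fgr (-1.13 ± 0.362) and Grk3 (-1.27 ± 0.602), as a description, were not called either, and their libraries did not overlap. Fyn, Csk, Prkcd and Btk differed by -0.12 ± 0.395, 0.03 ± 0.427, -0.05 ± 0.324 and -0.25 ± 0.677. Of the myeloid receptor genes 4 of 10 were lower in CD8+ and of the macrophage and monocyte markers 5 of 10, with sums of 171 to 713 CPM in CD8+ and 926 to 1309 CPM in CD4+.

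In WT post-tx 4 of the 9 were lower in CD8+ and 1 higher, with 5.98% of all genes higher and 7.16% lower, a split of 45.5% higher among the calls that became 56.3% with DESeq2 size factors and 32.6% without the WT-labelled pre-tx libraries. The difference was -3.55 ± 0.773 for Btk (adjusted p = 0.00296), -2.97 ± 0.507 for Lyn (adjusted p = 0.000299), -2.73 ± 0.648 for Grk3 (adjusted p = 0.00586) and -1.25 ± 0.4 for Fyn (adjusted p = 0.0383), and Csk was higher by 1.37 ± 0.434 (adjusted p = 0.0371), although its libraries overlapped. Btk, Lyn and Grk3 held without any 1 library, but Grk3 was not called with counts from length-scaled TPM (adjusted p = 0.0847). Fyn lost its call without WT CD8+ replicate 2 or WT CD4+ replicate 2 or 3 (up to 0.282), with DESeq2 size factors (0.061), with no filter (0.0905) and with a replicate block (0.0639). Csk lost it without any 1 library other than WT CD8+ replicate 1 (up to 0.226), with limma-voom (0.15), with a replicate block (0.319) and without the WT-labelled pre-tx libraries (0.0994). WT CD8+ post-tx replicate 2 had the lowest Fyn (22.9 CPM) and the highest Csk (463 CPM), Lck (6422 CPM) and Zap70 (2388 CPM) of its group. Of the myeloid receptor genes 7 of 10 and of the macrophage and monocyte markers 7 of 10 were lower in CD8+, with sums of 182 to 295 CPM in CD8+ and 568 to 757 CPM in CD4+.

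Lyn, Btk and Grk3 were thus lower in CD8+ than in CD4+ cells post-tx in both genotypes, Grk3 in WT with the exception named above. Fyn was lower in WT, at 53.8 ± 27.1 CPM (SD, n = 3) in CD8+ against 128 ± 33 CPM in CD4+. That call was lost without certain libraries and under certain settings, as named above. In *Cat-Tg*, where Fyn was not called, it was at 100 ± 27.6 CPM in CD8+ against 65.8 ± 19.6 CPM in CD4+. The difference between the genotypes in this respect was not tested.

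The differences between *Cat-Tg* and WT, and those of the WT groups over time, come from the same edgeR fits but are a description, because the list was drawn from the *Cat-Tg* against WT comparison. Calls of members are named there to place them, with the share of all genes called, and nothing is read from their number, which the choice of members bears on. In CD8+ pre-tx the *Cat-Tg* minus WT differences of the 7 members called lower on the log2 scale were Vav2 -7.19 ± 1.23, Syk -5.89 ± 0.983, Lyn -4.81 ± 0.659, Btk -3.43 ± 0.856, Grk3 -3.05 ± 0.863, Fgr -2.91 ± 0.425 and Prkcd -1.92 ± 0.425, where 4.5% of 15960 genes were called higher and 4.47% lower. Fyn (-0.54 ± 0.47) and Csk (-0.57 ± 0.514) were not. In CD4+ pre-tx the 7 called lower differed likewise (Syk -2.93 ± 0.485, Vav2 -2.80 ± 0.449, Btk -2.62 ± 0.508, Fgr -2.16 ± 0.354, Lyn -1.53 ± 0.322, Prkcd -1.32 ± 0.247 and Csk -1.11 ± 0.274), with 13.3% of 17227 genes called higher and 7.18% lower; the higher share of calls, 64.9%, was 51.8% with DESeq2 size factors. Fyn differed by 0.37 ± 0.302 and Grk3 by -0.96 ± 0.36.

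Both comparisons set *Cat-Tg* cells against the WT-labelled pre-tx libraries, in which 13 and 14 of the 14 B cell markers were higher and 6 and 10 of the 10 T cell markers lower than in *Cat-Tg* CD8+ and CD4+ cells. Of the B cell receptor partners 9 of 10 were lower in *Cat-Tg* in each. The part of these cells in the values of the 9 genes was not tested.

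Post-tx the picture differed. In CD8+ cells edgeR called 0 of the 9 between *Cat-Tg* and WT (2, Lyn and Vav2, at an unadjusted p under 0.05; 0 by limma-voom and 1 by DESeq2), with 1.1% of genes called higher and 0.57% lower, and values from -2.85 ± 0.998 for Vav2 to 1.33 ± 0.58 for Lyn. In CD4+ cells Grk3 (2.24 ± 0.372), Lyn (2.05 ± 0.327), Fgr (2.01 ± 0.351) and Syk (1.96 ± 0.469) were called higher in *Cat-Tg* and Fyn lower (-1.19 ± 0.304), with 3.7% of genes called higher and 6.47% lower. The libraries of both genotypes were apart for these 5. Of the myeloid receptor genes 9 of 10 were called higher in *Cat-Tg* CD4+ post-tx cells, and the macrophage and monocyte sum was 2415 to 3770 CPM against 568 to 757 CPM in WT.

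From pre-tx to post-tx the WT groups are likewise given as a description. In the WT CD8+ groups Btk (-6.36 ± 0.998), Lyn (-5.96 ± 0.698), Syk (-5.05 ± 0.944), Grk3 (-4.97 ± 0.953), Prkcd (-1.66 ± 0.422) and Fgr (-1.52 ± 0.404) were called lower post-tx, with 13.2% of genes called higher and 10.4% lower. In the WT CD4+ groups Fyn was called higher (2.15 ± 0.313) and 7 were called lower, from Syk (-4.19 ± 0.514) to Csk (-1.55 ± 0.277), with 14.7% of genes called higher and 9.61% lower. All 14 B cell markers were called lower post-tx in both.

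**Figure D5:**
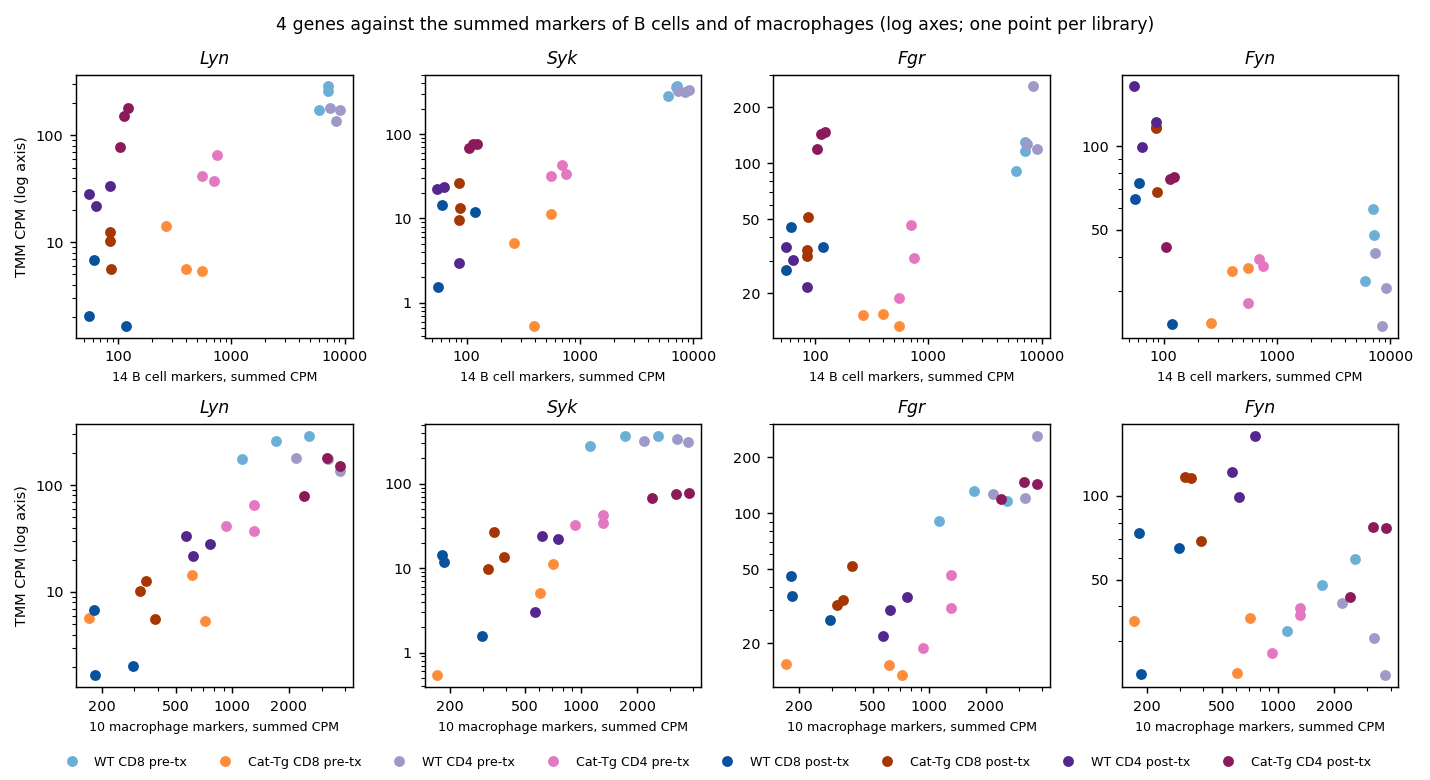
TMM CPM of Lyn, Syk, Fgr and Fyn (y axis) against the summed CPM of 14 B cell markers (upper row) and of 10 macrophage and monocyte markers (lower row), log axes, 1 point per library coloured by group. *Cat-Tg* CD4+ post-tx libraries combine high Lyn and Fgr with B cell sums of 105 to 123 CPM and macrophage sums of 2415 to 3770 CPM. The WT-labelled pre-tx libraries have the highest B cell sums (5989 to 9130 CPM). Their macrophage sums (1123 to 3746 CPM) overlap those of *Cat-Tg* CD4+ pre-tx (926 to 1309 CPM).

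The remaining lists were counted for *Cat-Tg* cells post-tx against pre-tx. Of all genes tested there, 8.72% were called higher and 5.23% lower in CD8+ cells, and 16.2% higher and 28.9% lower in CD4+ cells. Nothing is read from the counts of these lists. The control genes of Src family kinases (Pag1, Matk, Ptprc, Ptpn22, Ptpn6, Cbl and Cblb) had 1 of 7, the ubiquitin ligase Cblb, higher in *Cat-Tg* CD8+ cells post-tx (1.81 ± 0.478, adjusted p = 0.0217). In CD4+ cells the phosphatase Ptpn6 rose (1.15 ± 0.209, adjusted p = 0.000645) and the Csk relative Matk fell (by 1.15 ± 0.419, adjusted p = 0.0354). Of the Syk and Tec families beside Syk and Btk (Zap70, Tec, Txk and Bmx) 1 of 4, Txk, fell in CD8+ (by 1.59 ± 0.454, adjusted p = 0.0313) and 2, Tec and Txk, fell in CD4+ *Cat-Tg* cells. Of 6 other protein kinase C genes Prkca, a conventional isoform, rose in both (by 2.35 ± 0.568 in CD8+, adjusted p = 0.0138, and by 1.36 ± 0.348 in CD4+, adjusted p = 0.00593), and Prkcz, an atypical isoform, fell in CD4+ cells by 1.12 ± 0.395 (adjusted p = 0.0308). Vav1, the main Vav of blood cells, rose by 0.72 ± 0.229 in CD4+ cells (adjusted p = 0.0193). With DESeq2 size factors the median of all genes in that comparison moved by 0.23, which bears on small values such as this one. Of 4 other receptor kinases Grk6 rose in CD8+ cells (1.57 ± 0.48, adjusted p = 0.0414) and Grk4 fell in CD4+ cells (by 2.86 ± 0.462, adjusted p = 0.000255).

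Across the 24 libraries, the genes most like each member in log2 CPM were read by Pearson's r, as a description, since libraries of a group and groups of high B cell or macrophage markers share much of it. Among the genes closest to Lyn were Il1b (r = 0.943) and I830077J02Rik (0.942), and these values were 0.905 and 0.902 without the 6 WT-labelled pre-tx libraries (n = 18). Fgr was closest to Atp6v0a1 (0.902), Irf5 (0.901) and Ctsz (0.888), Syk to Snx8 (0.928), Unc93b1 (0.925) and Pld4 (0.906), Btk to Cyp27a1 (0.933), Plaur (0.93) and Rassf4 (0.916), and Grk3 to Hfe (0.935), Tspan15 (0.923) and Cd300lf (0.916). Without the 6 WT-labelled pre-tx libraries the values, in the same order, were 0.848, 0.831 and 0.788 for Syk and 0.88, 0.874 and 0.855 for Btk. Fyn was closest to Gnb1 (0.905), Lcp1 (0.9) and Zfp207 (0.898), and Csk to Ptp4a3 (0.949), Ctdsp1 (0.928) and Tsen34 (0.913). Prkcd was closest to Syvn1 (0.936) and Vav2 to Fos (0.935). Among the 9 genes themselves r was 0.874 between Lyn and Grk3, 0.858 between Lyn and Btk and 0.841 between Lyn and Syk, but -0.085 between Lyn and Fyn and 0.118 between Lyn and Csk.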

How the data were processed

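RNA sequencing had been made from 24 sorted T cell samples. The authors pseudoaligned the reads with kallisto 0.46.2 (per the labels' processing notes, which also name limma and the build mm9) and deposited, for each transcript, an estimated count, without normalization, and a TPM, the authors' length-corrected share of all transcripts. The release of the transcript index is not given in the sources used here. Of 117497 transcripts, 116374 matched GENCODE M21 by identifier (1123 did not), and these held 99.57% to 99.75% of a library's counts. Coordinates come from that match (GRCm38), and promoters and motif windows from a RefSeq table, so they do not depend on the authors' build.

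Estimated counts were summed to gene symbols, rounded, and tested in edgeR 4.0.16 (R 4.3.3) with TMM, the robust quasi-likelihood F test and Benjamini-Hochberg adjustment over all genes that exceeded 1 CPM in 3 or more libraries of the fit: 12 libraries of a cell type (15960 genes in CD8+, 17227 in CD4+), or all 24 (19076) for CD8+ against CD4+ and the interaction. A gene was called at an adjusted p of at most 0.05. The SE of a log2 fold change was taken as its size over the root of the F statistic. The study's methods used voom and limma on TPM, so limma-voom (limma 3.58.1), DESeq2 1.42.0, DESeq2 size factors, no filter, counts from length-scaled TPM, fold thresholds, a replicate block, leaving out each library and leaving out the 6 WT-labelled pre-tx libraries were alternatives. The scripts were tested on simulated data. The members and lists were chosen with earlier results of these data known. Named genes are the members, the lists and, for each member, the 3 protein-coding genes with the highest Pearson r of log2 CPM (prior count 2); some genes of these lists are not reported here. Motif shares are over 32851 RefSeq windows.

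Replicates are separate libraries, so p-values measure the spread between these libraries. By the study's methods CD4+ and CD8+ cells were sorted from each mouse, but the labels do not say which libraries share one. The comparisons of CD8+ with CD4+ cells and the interaction therefore treat libraries that share mice as independent. Same-numbered libraries did not deviate together (r of -0.229 to 0.176, and in no comparison over 0.1 for all 3 pairs), so replicate number was left out of the model. This check cannot show that the pairing has no effect, because the numbers need not follow the mice. Lists were counted beside all genes, with no set test.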

Additional observations from a re-analysis of the deposited data

Results flagged for a closer look

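Grk3 and Btk differed between cell types in their change from pre-tx to post-tx in *Cat-Tg* cells, by the interaction term of the edgeR fit of 24 libraries. The change of Grk3 was lower in CD8+ than in CD4+ cells by -4.06 ± 0.876 (SE) on the log2 scale, and that of Btk by -4.27 ± 1 (adjusted p = 0.036). Grk3 was chosen as low in *Cat-Tg* pre-tx libraries, which enter this difference, so its value is a description, given without p. Btk was also low in these libraries and was picked with earlier results known, which limits its adjusted p. CD8+ post-tx libraries of *Cat-Tg* mice held 0.196 to 1.64 CPM of Grk3 and 0.256 to 2.28 CPM of Btk. These are few counts: at most 51 of Grk3 and 70 of Btk in any of these libraries, where 3 counts correspond to 0.0779 to 0.0813 CPM. Leaving out 1 of the 12 *Cat-Tg* libraries ended the Grk3 call in 8 cases and the Btk call in 9, and both were lost with a replicate block, with counts from length-scaled TPM and without the WT-labelled pre-tx libraries.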

How the results depend on the processing

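Counts of the 9 genes called are given under each alternative that moved them by more than 1.5 times, and the cause of each move was not tested unless the alternative itself removed genes or libraries. A further threshold of 2 on the absolute log2 fold change left 1 of 3 in *Cat-Tg* CD8+ post-tx against pre-tx, 0 of 5 in *Cat-Tg* CD4+, 4 of 7 in CD4+ pre-tx *Cat-Tg* against WT, 3 of 5 in CD4+ post-tx *Cat-Tg* against WT, 5 of 8 in WT CD4+ post-tx against pre-tx and 3 of 5 in WT post-tx CD8+ against CD4+. Without the 6 WT-labelled pre-tx libraries 1 was called in *Cat-Tg* CD8+ post-tx against pre-tx and 0 in the interaction, and counts from length-scaled TPM also gave 0 in the interaction. For CD8+ post-tx *Cat-Tg* against WT, DESeq2 and no filter on low counts each called 1. A fit with a replicate block called 3 in WT post-tx CD8+ against CD4+ and 0 in the interaction, and changed no other count of calls in the tested comparisons. The labels tie same-numbered libraries by number only. Leaving out 1 library gave counts of 0 to 2 in *Cat-Tg* CD8+ post-tx against pre-tx, 5 to 8 in *Cat-Tg* CD4+ (8 without post-tx replicate 1), 0 to 1 in CD8+ post-tx *Cat-Tg* against WT (1 without WT replicate 2), 1 to 2 in *Cat-Tg* pre-tx CD8+ against CD4+, 3 to 5 in WT post-tx CD8+ against CD4+ and 0 to 2 in the interaction. Signs turned only for values near 0 that were called in neither setting. Csk in *Cat-Tg* CD4+ (main -0.26) was 0.0 with DESeq2 size factors, 0.0 with DESeq2, 0.05 with no filter and 0.08 without the WT-labelled pre-tx libraries. For *Cat-Tg* pre-tx CD8+ against CD4+, Csk was -0.07 with length-scaled TPM. Leaving out 1 library moved Csk there from -0.14 to 0.17, Fyn from -0.3 to 0.06, Btk from -0.64 to 0.04 and Prkcd from -0.22 to 0.11, moved Lyn in *Cat-Tg* CD8+ from -0.14 to 0.76, and moved Vav2 in the interaction from -0.62 to 0.46. Of 755 alternative values of single members, 652 kept their direction and side of the threshold, 63 lost a call, 20 gained one and 20 turned sign. Depth limits Vav2 in *Cat-Tg* CD8+ pre-tx, where no library held more than 10 counts. It also limits Grk3 and Btk in *Cat-Tg* CD8+ post-tx, with at most 51 and 70 counts in any library.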

Other observations

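In the interaction of time and cell type in *Cat-Tg* cells, 1 of the 10 myeloid receptor genes, the inhibitory Fc receptor Fcgr2b, passed the edgeR test (-3.71 ± 0.693, adjusted p = 0.00594); 0 of the 10 macrophage and monocyte markers passed it, with a median of -0.8 on the log2 scale (CD8+ minus CD4+).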
